A study of Mus musculus with 38 samples.

Results

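Kinesins, dyneins, tubulins and stathmins were followed in the RNA of dentate gyrus granule cells that did or did not express the reporter dVenus. The members are the genes whose symbols name a kinesin heavy or light chain, a chain of cytoplasmic dynein or dynactin, an alpha, beta or gamma tubulin, or a stathmin. This rule found 90 of the 23420 genes counted in each library, and no measured value entered it. They are 42 kinesin heavy chains, 4 kinesin light chains, 7 heavy, intermediate and light intermediate chains of cytoplasmic dynein, 9 dynein light chains, 6 dynactin subunits, 7 alpha, 9 beta and 2 gamma tubulins and 4 stathmins.

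Microtubules are polymers of alpha and beta tubulin that give axons and dendrites their tracks, and gamma tubulin sits where new microtubules are nucleated. Most kinesins walk toward the growing plus end and carry vesicles and organelles outward, whereas cytoplasmic dynein, with its partner dynactin, carries cargo back toward the cell body. Stathmins bind free tubulin and favour microtubule disassembly. In granule cells of the dentate gyrus, which have long axons and large spiny dendrites, this machinery serves transport to and from synapses.

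The libraries came from male Arc::dVenus transgenic mice on the C57BL/6J background, 8 to 12 weeks old, in which the promoter of the activity-regulated gene Arc drives a destabilised Venus fluorescent protein. Fear conditioned (FC) mice had received 3 pairings of a tone with a foot shock, no-shock (NS) mice had the same protocol without shocks, and both were sampled 24 h after training. Home-cage (HC) mice had no training. From each of the 12 FC, 4 NS and 3 HC mice, 10 dVenus+ cells and 10 neighbouring dVenus- cells were aspirated as nucleated patches, which hold the soma but few of the distal processes, and each pool of 10 cells gave 1 library. In such a pool, fewer cells that express a gene and less RNA per cell cannot be told apart, and a cell counts as dVenus+ from reporter fluorescence alone. The 12 FC mice were split over 3 experiments (6, 4 and 2 mice), whereas NS and HC mice shared 1 other. For FC against NS or HC mice, training and experiment therefore cannot be told apart. This holds for levels and for the dVenus+ against dVenus- difference.

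The 38 libraries held between 1352288 and 18394761 counts on genes, with dVenus+ libraries the shallower of the pair in 9 of 12 FC, 3 of 4 NS and 2 of 3 HC mice. All libraries expressed granule cell markers, but the summed level of 9 such markers was lower in the dVenus+ library of every mouse, in 12 of 12 FC, 4 of 4 NS and 3 of 3 HC mice. Its median in FC mice was 451 CPM (range 105 to 949) in dVenus+ against 1070 CPM (616 to 2155) in dVenus- libraries, where CPM is the count scaled to library size and composition, and C1ql2, Calb1 and Plk5 were called lower. The sum of 8 microglial markers was higher in dVenus+ libraries of 10 of 12 FC, 4 of 4 NS and 2 of 3 HC mice, with an FC median of 182 CPM (23.9 to 1715) against 58.0 CPM (1.28 to 632), and C1qa and Csf1r called higher. The part of these differences in the results below was not tested.

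Of the 90 members, 35 had counts in all 38 libraries and 8 had none in any library, namely Dynlrb2, Dynlt1b, Dynlt1c, Kif2b, Kif4-ps, Klc3, Tuba3b and Tubb1. A gene was tested where 12 FC, 4 NS or 3 HC libraries, respectively, reached a minimum of 10 counts, which admitted 53, 48 and 51 members. A further 29 members had counts but did not pass in FC mice. Dynll1, a light chain shared by dynein and other complexes, had the highest mean over the 38 libraries at 391 CPM. It was followed by the axonal vesicle motors Kif1b with 351 CPM and Kif1a with 334 CPM, and by the light chain of conventional kinesin, Klc1, with 307 CPM. Divided by summed exon length, the order was led by the short genes Stmn3 with 222 CPM per kb, Dynlrb1 with 189 CPM per kb and Stmn1 with 179 CPM per kb, against 38.5 CPM per kb for Kif1a and 23.4 CPM per kb for Kif1b.

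In FC mice, 4 of the 53 members tested were called, that is, had an adjusted p under 0.05 and an absolute log2 fold change over 1 in edgeR's quasi-likelihood test with the mouse as block. The background was 422 of 9709 genes, or 4.35%, against 7.55% of the members. Tubb4b was the 1 member called higher in dVenus+ cells (1.89% of members, 1.5% of all genes tested), and Tuba1a, Stmn3 and Kif26b were called lower (5.66% of members, 2.84% of all genes tested). Thus 1 beta tubulin rose while 1 alpha tubulin, 1 stathmin and 1 kinesin fell. The members' median log2 fold change of -0.04 lay beside -0.11 over all genes tested, with 25 members above and 28 below 0. An unadjusted p under 0.05 was reached by 11 members (20.8%) and by 17.8% of all genes tested.

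The promoters of these called members are shown because these 4 genes are the ones described first, member by member. Each window runs from 250 bases before to 50 bases after the RefSeq start on GRCm38.p6, 5′ to 3′ along the gene's strand. The span of Tuba1a given below is from another annotation and starts upstream of the RefSeq start. Most of its bases before that start therefore lie within the span. Capitals mark matches, on either strand, to TGACG, the core of the cAMP response element, or to the GC box GGGCGG, which can share bases with it.
Tubb4b promoter, chr2:25224653-25224952, minus strand: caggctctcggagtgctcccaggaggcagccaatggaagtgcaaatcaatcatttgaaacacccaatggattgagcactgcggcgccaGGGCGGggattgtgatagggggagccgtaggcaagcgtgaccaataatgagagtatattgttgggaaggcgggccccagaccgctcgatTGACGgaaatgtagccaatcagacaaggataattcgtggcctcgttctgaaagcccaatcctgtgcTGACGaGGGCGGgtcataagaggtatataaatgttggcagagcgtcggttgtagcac
Tuba1a promoter, chr15:98953452-98953751, minus strand: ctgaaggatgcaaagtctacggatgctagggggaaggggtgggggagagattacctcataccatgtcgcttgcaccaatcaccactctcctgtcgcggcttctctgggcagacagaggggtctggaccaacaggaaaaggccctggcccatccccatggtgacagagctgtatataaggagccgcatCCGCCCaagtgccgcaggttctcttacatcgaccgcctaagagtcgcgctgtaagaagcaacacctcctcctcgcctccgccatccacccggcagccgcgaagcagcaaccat
Stmn3 promoter, chr2:181314451-181314750, minus strand: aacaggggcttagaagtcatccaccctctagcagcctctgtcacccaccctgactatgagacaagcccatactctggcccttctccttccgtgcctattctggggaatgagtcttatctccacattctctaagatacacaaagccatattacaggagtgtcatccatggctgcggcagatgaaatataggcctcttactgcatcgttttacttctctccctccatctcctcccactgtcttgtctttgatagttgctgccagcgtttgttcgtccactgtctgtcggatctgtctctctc
Kif26b promoter, chr1:178528875-178529174, plus strand: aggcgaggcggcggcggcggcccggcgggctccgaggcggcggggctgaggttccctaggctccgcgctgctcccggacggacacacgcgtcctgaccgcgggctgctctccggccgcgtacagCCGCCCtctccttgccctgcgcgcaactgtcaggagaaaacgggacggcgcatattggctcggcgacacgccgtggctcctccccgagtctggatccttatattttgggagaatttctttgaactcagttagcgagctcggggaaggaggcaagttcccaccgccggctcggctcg
Tubb4b held 2 matches to TGACG and 2 to GGGCGG, Tuba1a and Kif26b held 1 match to GGGCGG each, and Stmn3 held neither. Of the 90 members, 66 had a window, 73 windows in all. A TGACG match was present in 29 of these 73 windows (39.7%) and in 20.8% of all 32851 windows of this length, and a GGGCGG match in 46 (63.0%) against 35.7%. These are descriptions of the letters in the windows, not of occupied sites.

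Tubb4b (chromosome 2, 25222160 to 25224702, minus strand) encodes a beta tubulin isotype found in most tissues and in cilia. In FC mice its level in dVenus+ libraries ran from 92.1 over a median of 162 to 377 CPM, and in dVenus- libraries from 5.18 over 74.9 to 205 CPM. It was higher in the dVenus+ cells of 10 of 12 mice, and the ranges overlapped, with mice 7 and 10 the highest dVenus- libraries at 180 and 205 CPM. The log2 fold change was 1.55 (SE 0.44, n = 12 mice), with an adjusted p of 0.0398. In NS mice the dVenus+ libraries held 109, 22.0, 226 and 71.0 CPM against 11.4, 48, 64.6 and 112 CPM in the dVenus- libraries of the same mice, higher in 2 of 4. In HC mice they held 33.2, 55.8 and 415 CPM against 110, 8.86 and 185 CPM. Neither group separated the classes. Exons of Tubb4b overlap those of Fam166a on the opposite strand by 121 bases, and the strand setting of the counting was not given in the sources used here, so reads there could come from either gene.

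Tuba1a (chromosome 15, 98949837 to 98953703, minus strand) encodes the alpha tubulin that dominates in developing neurons. Its FC levels ran from 31.1 over 111 to 221 CPM in dVenus+ and from 140 over 294 to 427 CPM in dVenus- libraries. Tuba1a was lower in the dVenus+ cells of 10 of 12 mice, and mice 1 and 12 were the exceptions, with 207 against 200 and 143 against 140 CPM. The log2 fold change was -1.27 (SE 0.36, n = 12 mice), with an adjusted p of 0.0424. In NS mice the levels did not overlap, with 87.9, 157, 106 and 275 CPM in dVenus+ and 549, 693, 436 and 381 CPM in dVenus- libraries. There the log2 fold change was -1.85 (SE 0.77, n = 4 mice) and the adjusted p 0.535, with an unadjusted p of 0.021. In HC mice 200, 267 and 309 CPM stood against 381, 213 and 445 CPM, lower in 2 of 3 mice. The difference between the FC and NS fold changes was 0.53 (SE 0.70) and that between FC and HC was -0.92 (SE 0.77) on the log2 scale, with adjusted p of 0.899 and 0.734. Tuba1a is nearly identical in coding sequence to Tuba1b and Tuba1c, so reads that align to more than 1 of them were lost from these counts.

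Stmn3 (chromosome 2, 181306459 to 181314500, minus strand) encodes a Golgi-associated stathmin of neurons. Its FC levels ran from 31.9 over 113 to 383 CPM in dVenus+ and from 109 over 264 to 634 CPM in dVenus- libraries. It was lower in 11 of 12 mice, and the exception was mouse 1 with 176 against 175 CPM. The log2 fold change was -1.26 (SE 0.36, n = 12 mice), with an adjusted p of 0.0412. NS mice had 196, 143, 151 and 292 CPM in dVenus+ and 713, 379, 394 and 250 CPM in dVenus- libraries, lower in 3 of 4. In HC mice, 194, 175 and 149 CPM stood against 292, 426 and 174 CPM, lower in 3 of 3. The fold changes of -1.14 (SE 0.76) in NS and -0.84 (SE 0.95) in HC mice had adjusted p of 0.665 and 0.814.

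Kif26b (chromosome 1, 178529125 to 178939200, plus strand) encodes a kinesin-like protein whose motor domain lacks ATPase activity and which is studied in cell adhesion and Wnt5a signalling rather than transport. It was at 0 in 8 of the 12 dVenus+ FC libraries, whose highest value was 16.5 CPM, and in none of the dVenus- libraries, which ran from 0.135 over 20.2 to 35.4 CPM. It was lower in dVenus+ cells of 12 of 12 mice, the 1 member with the same sign in every FC mouse (1.89% of members, 1.63% of all genes tested). Kif26b reached 10 counts in 11 dVenus- and 3 dVenus+ FC libraries. It thus passed the count filter mainly through the class where it was higher, which favours a difference of this sign. The log2 fold change was -4.24 (SE 0.96), with an adjusted p of 0.00938, and as most dVenus+ libraries are at 0 its size depends on the fit. In NS mice the dVenus+ libraries held 3.77, 0, 77.5 and 0.467 CPM and the dVenus- libraries 0, 0, 0 and 0.8 CPM. In HC mice 0, 0 and 25.2 CPM stood against 51.5, 0 and 46.1 CPM. Of all members it had the smallest p of the FC against NS interaction, -9.78 on the log2 scale (SE 3.00, unadjusted p of 0.00305), but the adjusted p was 0.467, and 1 NS library of 77.5 CPM carries most of the NS level.

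**Figure D1:**
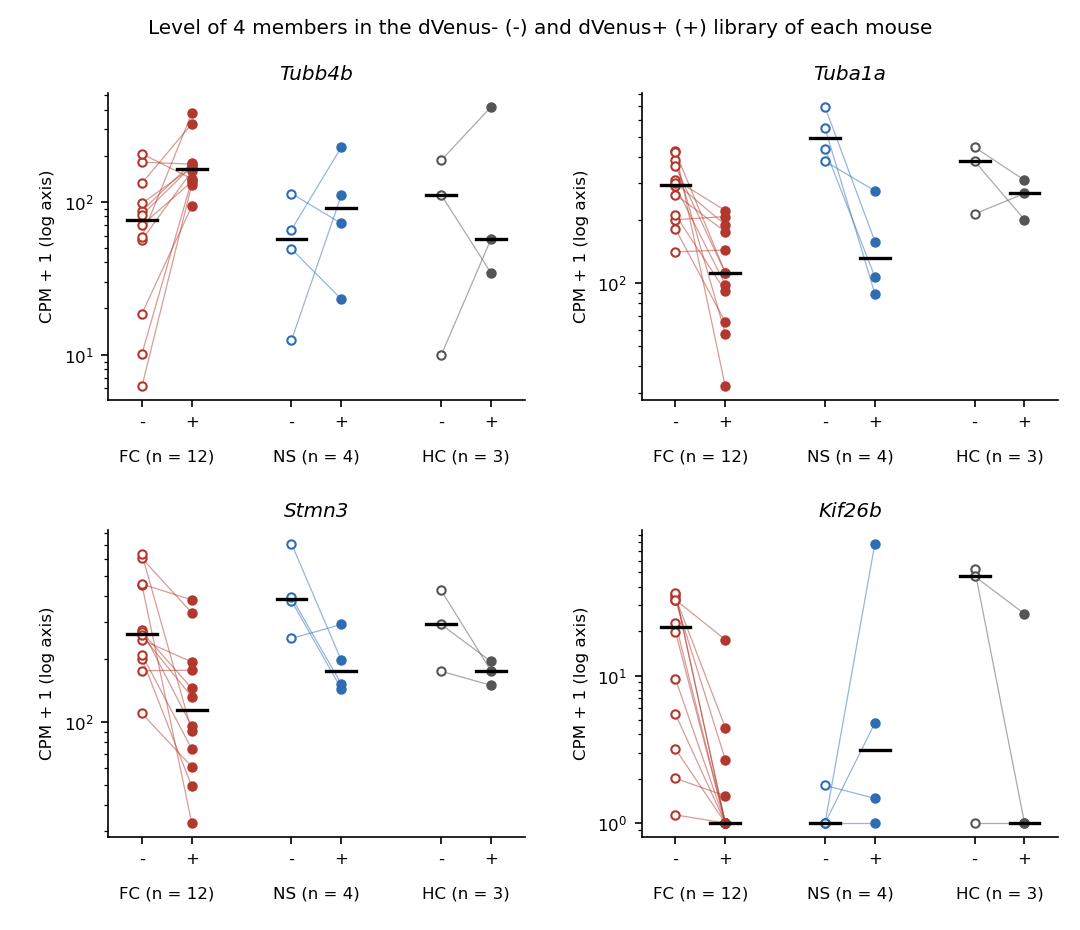
Level of the 4 members called in FC mice in each library, as CPM + 1 on a log axis, with open circles for dVenus- and filled circles for dVenus+ libraries, lines joining the libraries of a mouse and black bars at the median. In FC mice Tubb4b is higher in dVenus+ cells of 10 of 12 mice, Tuba1a lower in 10, Stmn3 lower in 11 and Kif26b lower in 12. In NS mice the lines of Tubb4b, Stmn3 and Kif26b run both ways, as do those of Tubb4b and Tuba1a in HC mice.

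The calls of Tubb4b, Tuba1a and Stmn3 lay close to the threshold. Leaving out 1 mouse at a time left between 1 and 3 members called. Kif26b was called in 12 of 12 such fits, Stmn3 in 4, Tubb4b in 3 and Tuba1a in 2. As Kif26b passed the count filter mainly through its dVenus- libraries, no support is drawn from its 12 calls. The count of members called was 1 without mouse 3, 6, 9 or 13, 2 without mouse 10, 11 or 14, and 3 without mouse 1, 4, 5, 7 or 12. These counts include Klc4, a kinesin light chain that passed the count filter in 4 of the fits, without mouse 4, 5, 12 or 14. It was called lower in dVenus+ cells in all 4, with log2 fold changes from -4.43 to -4.03 and adjusted p from 0.0157 to 0.0326. Klc4 reached 10 counts in 8 dVenus- and 3 dVenus+ FC libraries. In these 4 fits it thus passed mainly through the class where it was higher, which favours a difference of this sign. With no count filter, or with the filter set over all 38 libraries, Klc4 was called lower as well, at -4.14 (adjusted p of 0.0443) and -4.09 (adjusted p of 0.0301). The highest adjusted p in these fits was 0.0263 for Kif26b, 0.0984 for Stmn3, 0.0888 for Tubb4b and 0.0776 for Tuba1a. Within the experiment of 6 mice the log2 fold changes of Tubb4b, Tuba1a, Stmn3 and Kif26b were 1.68, -0.77, -1.34 and -3.51, and within that of 4 mice they were 0.82, -2.52, -1.72 and -6.44, with no member called in either. An older form of the quasi-likelihood test called Kif26b alone among the members (1.89%) and 137 genes in all (1.41%), and the Wald test of DESeq2 called 10 members, the 4 above with Dync1h1, Dync2li1, Kif1c, Kif2a, Kifc2 and Tubg2 (19.2% of 52 members), and 1433 genes in all (16.2%).

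Among the other tubulins of FC mice, fitted values lay on either side of 0 and none was called. Differences between isotypes were not tested. Tuba4a, an alpha tubulin whose gene stays expressed in mature neurons, had a median of 328 CPM (range 116 to 898) in dVenus+ against 185 CPM (73.4 to 461) in dVenus- libraries. It was higher in 7 of 12 mice, with a log2 fold change of 0.81 (SE 0.35, adjusted p of 0.205) that turned to -0.27 within the experiment of 4 mice, and its exons overlap those of Stk16 by 1379 bases. Tuba1b had 67.8 CPM (19.2 to 221) against 101 CPM (52.4 to 222), with -0.67 (SE 0.39). Tubb4a, a beta tubulin largely of the brain, had 317 CPM (11.3 to 421) against 140 CPM (26.1 to 425) and Tubb2a 241 CPM (56.3 to 425) against 297 CPM (170 to 576), with log2 fold changes of 0.77 (SE 0.46) and -0.67 (SE 0.35). Tubb3, the neuronal isotype used as a marker of neurons, had 0.94 (SE 0.72, adjusted p of 0.547), Tubb2b had -0.24 (SE 0.80), and Tubb5 was level at -0.04 (SE 0.45). Of the gamma tubulins, Tubg2 was at 0 in 4 dVenus+ libraries and in none of the dVenus- libraries, with a log2 fold change of -2.15 (SE 1.05, adjusted p of 0.281), and Tubg1 had 0.28 (SE 1.02). Tubg2 reached 10 counts in 5 dVenus+ and 10 dVenus- libraries, so the count filter favours a value below 0. Tuba1c, Tuba3a, Tuba8, Tubb6 and the pseudogene Tubb2a-ps2 had counts in too few libraries to be tested.

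Of the other stathmins, Stmn1 (high in young neurons and dividing cells) was lower in the dVenus+ cells of 11 of 12 FC mice, with a median of 91.8 CPM (14.6 to 482) against 193 CPM (98.6 to 591). The exception was mouse 14, with 482 against 204 CPM. Its log2 fold change of -1.10 (SE 0.41) had an adjusted p of 0.129. The sum of 6 markers of immature neurons, of which 3 were tested, was lower in dVenus+ cells of 12 of 12 FC mice. Its median was 83.7 against 221 CPM, with Neurod1 called. In dVenus+ cells of NS and HC mice it was higher in 1 of 4 and 1 of 3. The fall in FC mice was not particular to these markers. Granule cell markers fell too, as given above, and 4 excitatory neuron markers had 679 against 1614 CPM, higher in 1 of 12. The part of these sums in the values of Tuba1a and Stmn1 was not tested. Stmn2, which is linked to axon growth and repair, and Stmn4 had log2 fold changes of 0.32 (SE 0.74) and 0.49 (SE 0.48).

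Cytoplasmic dynein moves on the heavy chain Dync1h1, which holds the motor. Dync1h1 had the smallest p among members not called in FC mice, with a median of 358 CPM (212 to 604) in dVenus+ and 172 CPM (80.4 to 320) in dVenus- libraries. It was higher in 9 of 12 mice, with a log2 fold change of 0.99 (SE 0.32) and an adjusted p of 0.0747. NS dVenus+ libraries held 66.7, 178, 543 and 252 CPM against 15.2, 187, 32.4 and 136 CPM, and HC libraries 167, 156 and 157 against 181, 97.5 and 34.2 CPM. The intermediate chain Dync1i2, which binds cargo adaptors and dynactin, had 0.61 (SE 0.43) in FC mice. Dync2li1, a light intermediate chain of the dynein that works in cilia, was at 0 in 6 dVenus+ and 1 dVenus- library and lower in 10 of 12 FC mice, with -2.51 (SE 0.92) and an adjusted p of 0.123. It reached 10 counts in 3 dVenus+ and 10 dVenus- libraries, so the count filter favours this sign. The dynactin subunits Dctn1, which grips the microtubule, and Dctn2 had -0.22 (SE 0.39) and 0.31 (SE 0.35). The light chains Dynll1 and Dynlrb1 had -0.33 (SE 0.33) and -0.52 (SE 0.38). None of the 7 dynein chains, the 4 light chains tested or the 6 dynactin subunits was called in FC mice.

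Among kinesins, 9 of 10 transport motors were tested in FC mice, 6 lay above and 3 below 0, and none was called. Kif1a, which carries synaptic vesicle precursors, was higher in the dVenus+ cells of 10 of 12 mice, with a median of 355 CPM (279 to 747) against 242 CPM (175 to 435), a log2 fold change of 0.60 (SE 0.27) and an adjusted p of 0.239. Kif1b had 0.51 (SE 0.31) and Kif5b, the broadly expressed conventional kinesin, 0.68 (SE 0.35). The neuronal Kif5a and Kif5c had -0.22 (SE 0.46) and 0.08 (SE 0.31), and Kif3a and Kif3b, the motor pair of kinesin-2, -0.04 (SE 0.35) and -0.10 (SE 0.85). Kif21a, which slows microtubule growth, had 0.11 (SE 0.39). Kif17, a dendritic motor, was at 0 in 3 dVenus+ and 1 dVenus- libraries and reached 160 CPM in 1 dVenus+ library, with 2.27 (SE 1.21). Kif21b did not pass the count filter.

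The microtubule depolymerase Kif2a had 50.1 CPM (8.43 to 352) in dVenus+ and 19.5 CPM (4.70 to 84.1) in dVenus- libraries of FC mice, was higher in 9 of 12 mice, and had a log2 fold change of 1.4 (SE 0.58) with an adjusted p of 0.185. Its relative Kif2c, active in dividing cells, was detected in 1 library. The minus-end motor Kifc2 was lower in 10 of 12 mice, with 65.6 CPM (0.563 to 237) against 139 CPM (45.3 to 394), -1.41 (SE 0.51) and an adjusted p of 0.119. Exons of Kif2a overlap those of Dimt1 by 765 bases and exons of Kifc2 those of Cyhr1 by 163 bases. Of the light chains, Klc1 had 0.24 (SE 0.35), and Klc4, with a median of 0.112 CPM (0 to 7.03) in dVenus+ against 11.3 CPM (0 to 210) in dVenus- libraries, did not pass the count filter with all 12 mice, and its calls under other filters are given above. The mitotic motors Kif20a, Kif23 and Kif4 did not pass either, and Kif11 had 0.08 (SE 0.44).

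**Figure D2:**
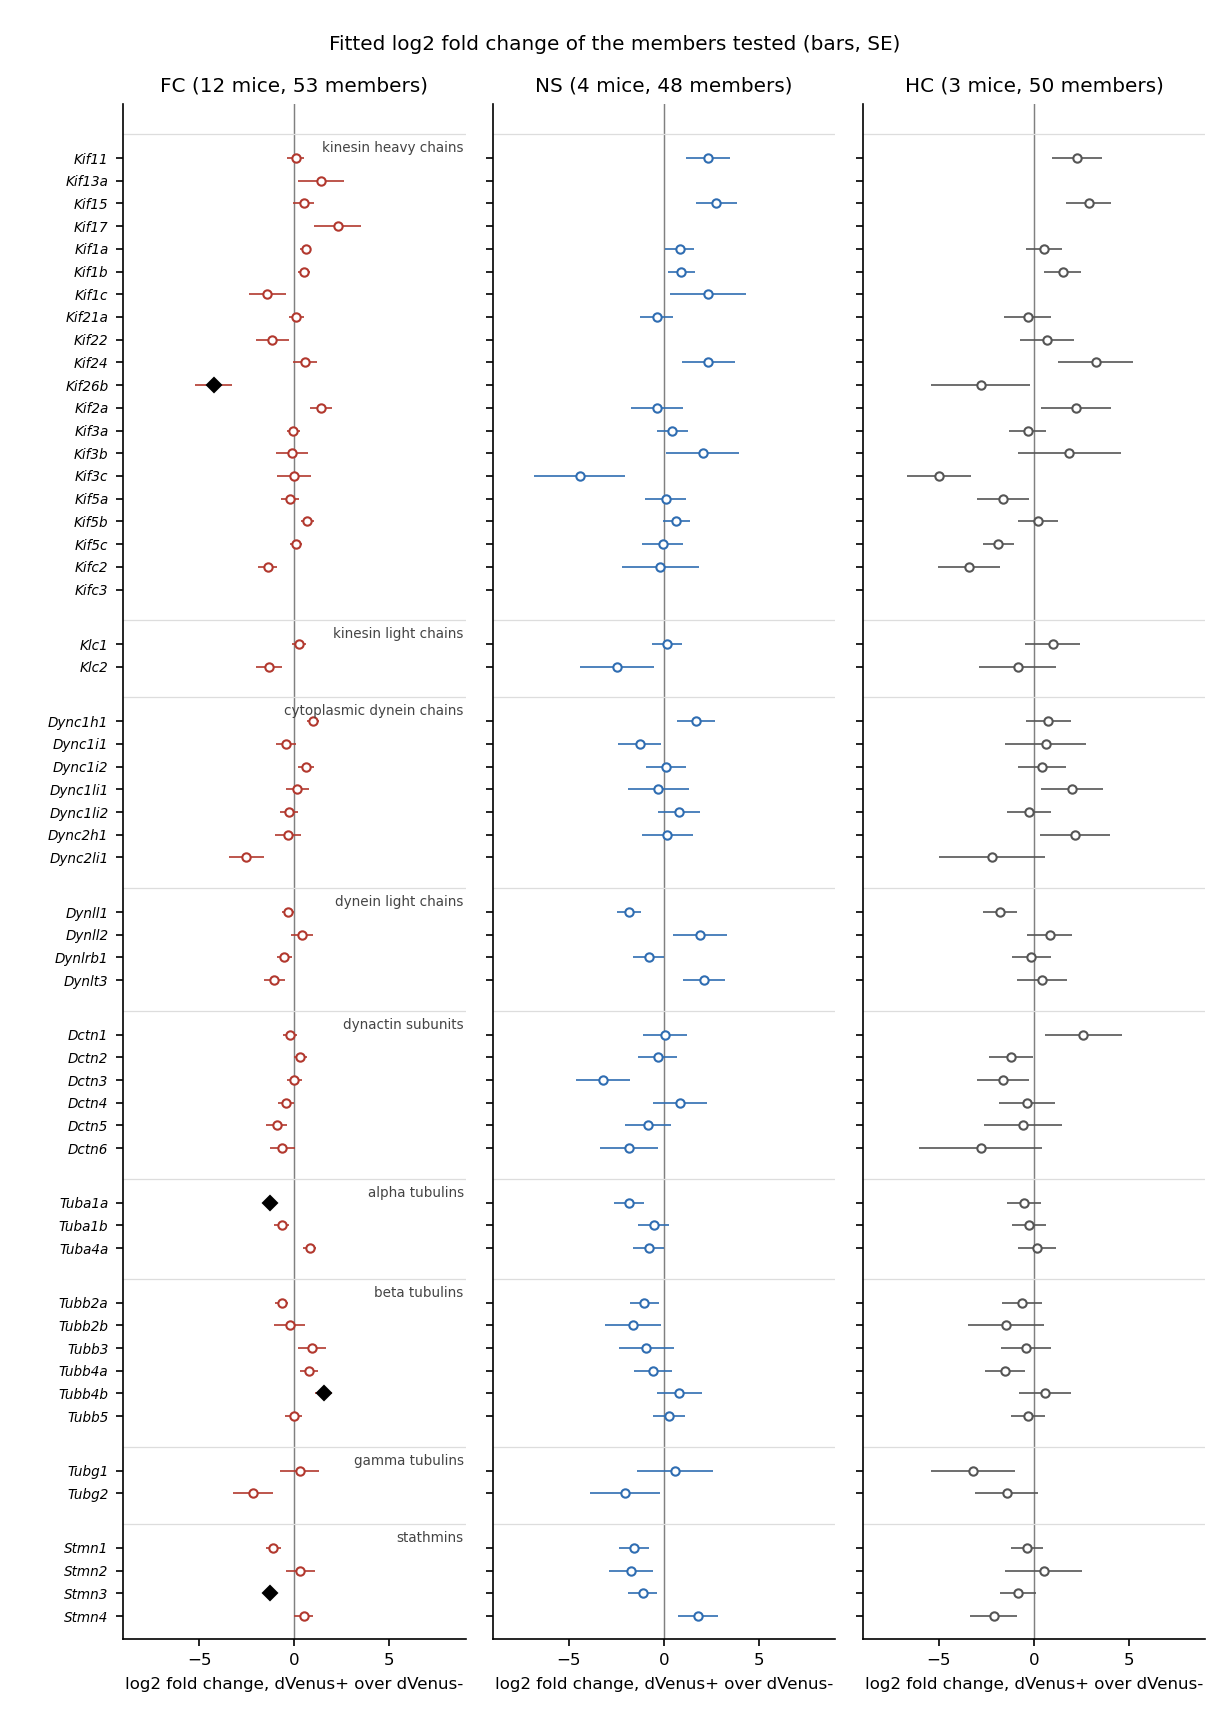
Fitted log2 fold change of dVenus+ over dVenus- cells for each member tested, by subfamily, in FC, NS and HC mice, with bars for the SE and black diamonds for called members. The 53 FC estimates have short bars and 4 diamonds, while those of the 48 NS and 50 HC members are wider and none is called. Kifc3 in HC mice is left out because all its dVenus- libraries are at 0.

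In NS mice, edgeR called 0 of the 48 members tested, against 4 of 8187 genes (0.0489%), and 4 members (8.33%) had an unadjusted p under 0.05 against 8.67% of all genes tested. The Wald test of DESeq2 called 1 member, Dctn3 (2.17%), against 7.2% of all genes. The members' median log2 fold change was -0.14, against 0.08 over all genes tested. Dynll1 had the smallest p, with 190, 152, 392 and 255 CPM in dVenus+ against 803, 686, 1219 and 678 CPM in dVenus- libraries. The classes did not overlap, and its log2 fold change of -1.84 (SE 0.64) had an adjusted p of 0.493. In HC mice Dynll1 again did not overlap, with 153, 142 and 426 CPM against 562, 950 and 519 CPM and a fold change of -1.79 (SE 0.90, adjusted p of 0.72). In FC mice it overlapped widely, at 108 to 605 against 129 to 744 CPM. The test of the difference between FC and NS gave 1.47 (SE 0.63, adjusted p of 0.59). Dctn3, the small shoulder subunit of dynactin, held 52.4, 19.1, 2.42 and 0.234 CPM in NS dVenus+ against 178, 21.7, 265 and 88.4 CPM in dVenus- libraries, and -3.23 (SE 1.41) had an adjusted p of 0.547.

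The mitotic spindle motors Kif15 and Kif11 were low throughout but higher in dVenus+ cells of every NS and HC mouse. Kif15 held 3.10, 7.14, 6.25 and 5.37 CPM in NS dVenus+ against 0.762, 1.62, 0.238 and 0.961 CPM in dVenus- libraries, and 7.13, 9.30 and 2.92 against 0.89, 1.81 and 0.0973 CPM in HC mice. Its log2 fold changes of 2.74 (SE 1.06) in NS and 2.86 (SE 1.16) in HC mice had adjusted p of 0.51 and 0.677. Kif11 held 5.39, 13.4, 5.25 and 4.90 CPM against 2.44, 4.33, 0.0792 and 0.48 CPM in NS mice and 15.4, 11.2 and 5.97 against 2.00, 1.61 and 2.04 CPM in HC mice. In NS mice Kif15 reached 10 counts in 4 dVenus+ and 1 dVenus- libraries, and Kif11 in 4 and 2. In HC mice it was 3 and 1 for Kif15 and 3 and 2 for Kif11. Both thus passed the count filter through the class where they were higher, which favours a difference of this sign. In FC mice Kif15 was higher in 7 of 12 and Kif11 in 6 of 12. The sum of 7 markers of dividing cells was also higher in dVenus+ cells of 4 of 4 NS (6.54 to 37.8 against 0.634 to 4.88 CPM), 3 of 3 HC (3.98 to 40.9 against 1.41 to 19.4 CPM) and 9 of 12 FC mice. Cdk1 and Aurkb were at 0 in all NS and HC libraries, as were Ccnb2 in NS and Top2a in HC mice. In either group 1 of the 7 markers passed the count filter. Of the 4 mitotic motors on the fixed list, Kif11 alone passed it in NS and HC mice, and Kif20a, Kif23 and Kif4 did not. The part of the marker sum in the kinesin values was not tested.

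In HC mice, edgeR called 0 of the 51 members and 0 of 7588 genes (0%), 4 members (7.84%) had an unadjusted p under 0.05 against 7.01% of all genes tested, and DESeq2 called 2 members, Kif3c and Kifc3 (4%, against 7.06% of all genes). The members' median was -0.30, against 0.02 over all genes tested. Kif3c, a neuronal kinesin-2 motor, held 0.274, 0.93 and 73.7 CPM in dVenus+ against 42, 667 and 284 CPM in dVenus- libraries, a log2 fold change of -5.02 (SE 1.68) with an adjusted p of 0.677. It reached 10 counts in 1 dVenus+ and 3 dVenus- libraries, and so passed the count filter through the class where it was higher. This favours a difference of this sign, also in its DESeq2 call. Kif5c held 79.0, 329 and 236 against 320, 1456 and 481 CPM, a fold change of -1.88 (SE 0.82, adjusted p of 0.697). The sum of 4 markers of CA1 and CA3 pyramidal cells, 1 of them tested, had an HC median of 1.86 CPM (0 to 4.65) in dVenus+ against 254 CPM (0.445 to 312) in dVenus- libraries. It was higher in dVenus+ cells of 0 of 3 HC, 1 of 4 NS and 5 of 12 FC mice. The part of this sum in the kinesin values was not tested. Kifc3, a minus-end kinesin of epithelial junctions, held 41.1, 68.4 and 5.57 CPM in dVenus+ libraries and no counts in the 3 dVenus- libraries, at least 135-fold higher when 3 counts over the dVenus- group are taken as the floor. Kifc3 passed the count filter only through its 3 dVenus+ libraries and so had to differ, which holds also for its DESeq2 call and for its lack of overlap. Exons of Kif3c overlap those of 1110002L01Rik by 2617 bases.

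Libraries of the classes did not overlap for 0 of 53 members in FC mice (0.124% of all genes tested), 4 of 48 among NS mice (8.33% against 5.97%) and 7 of 51 among HC mice (13.7% against 15.1%). The sign was the same in every mouse for 11 of 48 members in NS mice (22.9%, against 17.2% of all genes tested) and for 18 of 51 in HC mice (35.3% against 29.7%). The 4 without overlap in NS mice were Dynll1, Kif11, Kif15 and Tuba1a, and the 7 in HC mice Dynll1, Kif11, Kif15, Kif1b, Kifc2, Kifc3 and Stmn4. Among these, Kif11, Kif15 and Kifc3 passed the count filter through their dVenus+ libraries, and Kifc2 in HC mice through its dVenus- libraries (10 counts in 3 dVenus- and 2 dVenus+). No support is drawn from these members. Stmn4 lay on opposite sides, higher in dVenus+ cells of 4 of 4 NS mice (187, 188, 149 and 591 against 0, 149, 111 and 167 CPM) and lower in 3 of 3 HC mice (33.2, 24.2 and 133 against 147, 262 and 186 CPM). Its fold changes of 1.78 (SE 1.05) and -2.13 (SE 1.25) were not called, and their difference was not tested. Tests of whether the dVenus+ against dVenus- difference itself differed from FC mice called 0 of 65 members and 0 of 14075 genes (0%) for NS and for HC mice. Training and experiment cannot be told apart in these tests either. Unadjusted p under 0.05 were found for 7 members against NS (10.8%, against 8.18% of all genes tested) and 4 against HC mice (6.15%, against 9.26%), and DESeq2, whose fit converged for 59 of the 65, called 4 against NS (Dctn3, Dynlt3, Kif26b and Tuba4a, 6.78% against 4.93% of all genes) and 0 against HC mice (7.22% of all genes).

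As shares of a library, the members together took a median of 0.695% of the counts on genes in FC dVenus+ (0.209% to 1.09%) and 0.867% in dVenus- libraries (0.468% to 1.30%), lower in the dVenus+ cells of 8 of 12 mice. All 4 mice of one FC experiment were among these 8, with 4 of the 6 mice of the largest, while both mice of the smallest went the other way. In NS mice the members took a median of 0.489% in dVenus+ against 0.901% in dVenus- libraries, higher in dVenus+ cells of 1 of 4. In HC mice they took 0.344% against 1.12%, higher in 0 of 3. Tubulins alone took 0.0941% in NS dVenus+ (0.0499% to 0.132%) against 0.222% in dVenus- libraries (0.134% to 0.305%), and 0.0785% (0.0499% to 0.192%) against 0.324% (0.0995% to 0.326%) in HC mice. Tubulin shares were lower in dVenus+ cells of 4 of 4 NS and 3 of 3 HC mice, and in 6 of 12 FC mice, with FC medians of 0.176% against 0.193%. The fall in NS and HC mice was not particular to tubulins, as the shares of all members show. Reads assigned to no gene held a median of 39.3% in NS dVenus+ against 18.9% in dVenus- libraries (higher in 3 of 4 mice). The medians were 31.1% against 26.1% in HC (2 of 3) and 45.4% against 47.8% in FC mice (7 of 12). These are percentages of the reads on genes, on no gene or ambiguous between genes, and the other entries that name no gene did not enter them. The part of these reads in the tubulin shares was not tested. These shares carry no scaling for composition. On the scaled CPM, summed alpha tubulins were lower in 4 of 4 NS, 2 of 3 HC and 7 of 12 FC mice, and summed beta tubulins in 3 of 4 NS, 3 of 3 HC and 4 of 12 FC mice. Summed chains of cytoplasmic dynein were higher in 9 of 12 FC mice, and summed heavy chains of kinesin in 7.

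**Figure D3:**
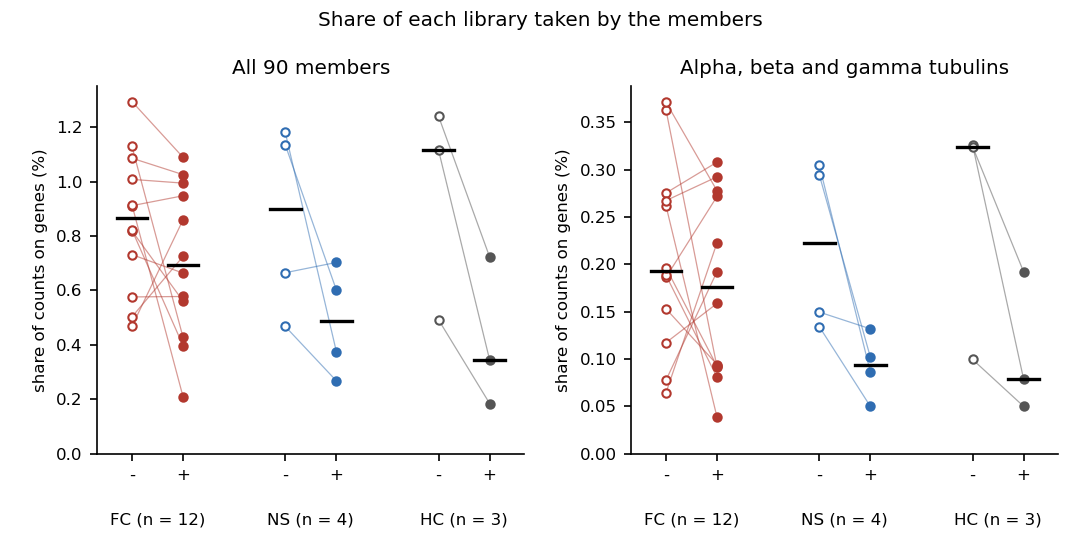
Share of the counts on genes taken by all 90 members (left) and by the tubulins (right) in each library, in percent, with open circles for dVenus-, filled circles for dVenus+ libraries, lines joining the libraries of a mouse and black bars at the median. Tubulin shares are lower in dVenus+ cells of 4 of 4 NS and 3 of 3 HC mice and split 6 to 6 in FC mice. Shares of all members are higher in dVenus+ cells of 4 of 12 FC, 1 of 4 NS and 0 of 3 HC mice.

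Fold changes of the members were also set beside the summed exon length of each gene, as tubulins and stathmins are short and motors long. The Spearman correlation across members was 0.27 for FC (n = 53), 0.47 for NS (n = 48) and 0.35 for HC (n = 51), against 0.02, 0.20 and 0.14 over all genes tested with a known length. All points of a group come from the same libraries and genes are not independent replicates, so no test was made. Of members under 2.5 kb, 8 of 22 lay above 0 for FC, 4 of 20 for NS and 4 of 22 for HC, and of those of 5 kb or more, 9 of 16, 10 of 14 and 8 of 14. Over all genes tested, genes under 2.5 kb had a median log2 fold change of -0.16 for FC, -0.51 for NS and -0.43 for HC, and those of 5 kb or more -0.09, 0.44 and 0.49. The part of this relation in the members' values was not tested.

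**Figure D4:**
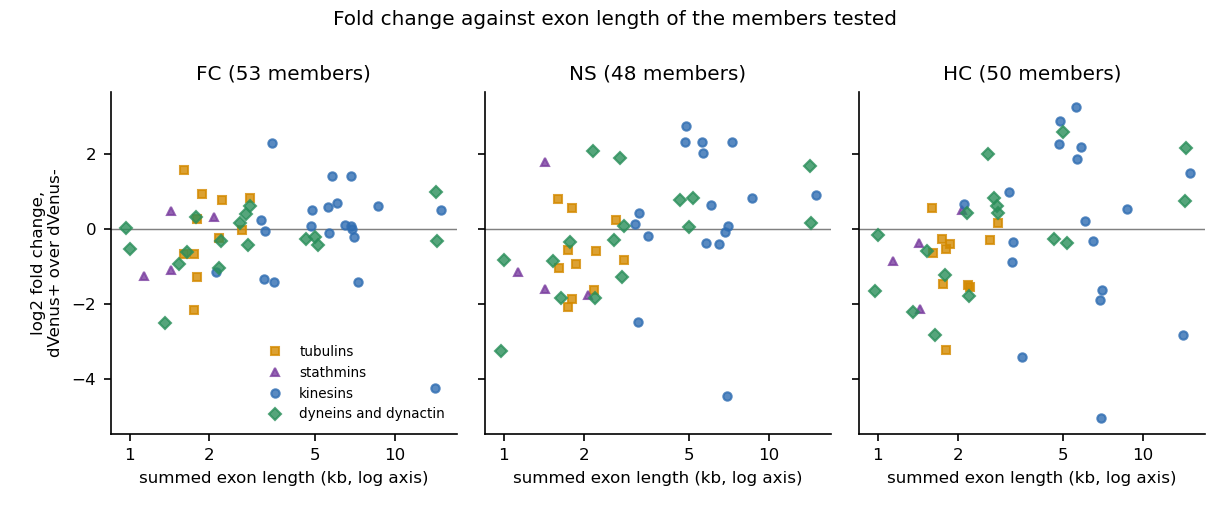
Fitted log2 fold change of dVenus+ over dVenus- cells (vertical) against summed exon length in kb on a log axis (horizontal) for the members tested in FC, NS and HC mice, by family, with Kifc3 left out in HC mice. Short tubulins and stathmins lie mostly below 0 in NS and HC mice, where 4 of 20 and 4 of 22 members under 2.5 kb are above 0.

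Other genes of the microtubule system, on fixed lists of microtubule-associated proteins, end-binding proteins, motor adaptors, severing and tubulin-modifying enzymes, nucleation factors and tubulin folding cofactors, were read the same way. Of 84 listed genes, 74 were tested in FC mice, and 1 was called higher and 4 lower (6.76%, against 4.35% of all genes tested). An unadjusted p under 0.05 was reached by 14 (18.9%, against 17.8% of all genes), and DESeq2 called 11 of 72 (15.3%, against 16.2%). Ttll7, a tubulin polyglutamylase of neurons, rose by 1.78 on the log2 scale (SE 0.44, adjusted p of 0.0188), from 39.7 ± 35.0 to 115 ± 42.6 CPM (mean ± SD, n = 12), higher in 12 of 12 mice. Dpysl2, which binds tubulin dimers and kinesin-1 in growing axons, fell by 1.36 (SE 0.34, adjusted p of 0.019), from 528 ± 220 to 237 ± 176 CPM. Map7, an activator of kinesin-1, fell by 2.33 (SE 0.62, adjusted p of 0.0256), Hap1, a partner of huntingtin and motors, by 2.25 (SE 0.63, adjusted p of 0.0363), and Tubgcp2, a part of the gamma-tubulin complex, by 1.74 (SE 0.52, adjusted p of 0.0494). In NS mice 65 and in HC mice 67 of the listed genes were tested and edgeR called 0 in either, with 8 (12.3%, against 8.67% of all genes) and 5 (7.46%, against 7.01%) at an unadjusted p under 0.05. DESeq2 called 4 (6.56%, against 7.2%) and 3 (4.76%, against 7.06%). There Dpysl2 was again lower in dVenus+ cells of 4 of 4 NS and 3 of 3 HC mice, with -1.72 (SE 0.69, adjusted p of 0.51) and -2.92 (SE 1.05, adjusted p of 0.677).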

How the data were processed

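RNA of 10 dVenus+ and 10 dVenus- granule cells per mouse had been amplified with SmartSeq2, made into Nextera XT libraries and sequenced as single reads of 50 bases. The values the authors deposited are counts: per the labels and methods they aligned reads to mm10 with TopHat2 2.0.13, discarded reads with more than 1 alignment and used HTSeq 0.6.0 for counting on NCBI transcripts, without normalization. Reads of near-identical genes were thereby dropped, and the strand setting of the counting is not given in the sources used here. The 5 entries that name no gene were left out. A further table of all libraries was not used. Groups were read from titles and characteristics, as the descriptions of some NS and HC libraries name another library.

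Counts were tested with edgeR 4.0.16 in R 4.3.3 with TMM scaling over all genes passing 10 counts in at least 12 (FC), 4 (NS) or 3 (HC and interactions) libraries, with the mouse as block, since both libraries of a number come from 1 animal. Deviations of the paired libraries had a median correlation of 0.0475 (FC), -0.0152 (NS) and 0.0072 (HC). P-values are two-sided and Benjamini-Hochberg adjusted over all genes tested. SEs are the fold change divided by the root of the F statistic. The current quasi-likelihood method of edgeR was used, and its older form was added as an alternative, a choice made after both had been run. Levels are CPM after TMM over 38 libraries, and direction by mouse is that of log2(CPM + 1). Exon lengths and overlaps come from GENCODE vM21 on GRCm38, the build of mm10, and the overlap of 1 member is not reported here. Members, gene lists and tests were chosen with earlier results of these data known. Named are called members, the 2 highest of each subfamily, the smallest p in each direction (5 in FC, 2 in NS and HC) and fixed kinesin groups. Tuba1b, Tubb2b, Tubb3, Tubb4a, Stmn2, Stmn4 and Dctn3 were named after their values were seen. Alternatives were other size factors, filters, no block, single experiments, leaving out each mouse, and DESeq2 1.42.0, from which genes whose fit did not converge were left out. In counts simulated for FC with known changes, the test recovered 38% of 100 genes at a log2 change of 3 and 95% at 6, with 2 false calls of 135 over 9607 genes. For NS (7860 genes) and HC (7202 genes) it recovered 0% at either size, so a count of 0 there says little.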

Additional observations from a re-analysis of the deposited data

Results flagged for a closer look

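Single libraries stood far from the other 3 of their class for 17 of the 70 sets of 4 NS libraries tested, by Dixon's criterion at the 95% level. For normally distributed values it flags about 1 in 20 sets (3.5 of 70) by chance. CPM are skewed and often 0, and a lone library above 0 is always flagged. That rate therefore does not hold here, and the 17 cannot be set against it. HC mice, with 3 libraries a class, and FC mice, with 12, were not tested. All 17 were high values, and in 9 of them the other 3 libraries were all at 0 or under 0.3 CPM.

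In dVenus+ libraries, mouse 20 stood apart for Kif26b with 77.5 CPM, Kifc3 with 42.8 CPM, Klc4 with 21.2 CPM and Dync2li1 with 0.807 CPM. Mouse 19 did so for Dctn1 with 97.3 CPM (others 43.4 to 49.6 CPM), Kif3c with 28.3 CPM and Kif11 with 13.4 CPM (others 4.90 to 5.39 CPM). Mouse 18 did so for Kif17 with 47.8 CPM and Kif20a with 14.1 CPM, and mouse 21 for Kif21b with 35.7 CPM. In dVenus- libraries, mouse 21 stood apart for Dctn1 with 199 CPM (others 30.5 to 38.6 CPM), Tubg2 with 81.6 CPM (others 13.6 to 24 CPM), Kif26b with 0.8 CPM and Kif17 with 0.56 CPM. Mouse 19 did so for Klc4 with 62.1 CPM and Kif21b with 0.181 CPM, and mouse 18 for Stmn1 with 1157 CPM (others 254 to 369 CPM). Without mouse 20, or any other NS mouse, edgeR called 0 members in NS mice.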

How the results depend on the processing

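The count of FC members called, 4 in the report, was 1 with the older quasi-likelihood method, 2 with no count filter and 10 with the Wald test of DESeq2. It was 0 within the experiment of 6 mice, 0 within that of 4 mice, and 1 to 3 without 1 mouse. Of all genes, 422 were called in FC mice in the report, 137 with the older method, 1433 with DESeq2, and 15 and 12 within the experiments of 6 and 4 mice, where fewer mice were fitted. DESeq2 called 1 NS member, 2 HC members, 4 in the FC against NS and 0 in the FC against HC interaction, where edgeR called 0 under every alternative run. Without the replicate block edgeR called 3 FC members (Kif17, Kif26b and Tuba1a, so that Stmn3 and Tubb4b lost the call) and 0 of the NS or HC members. The cause of these differences was not tested.

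For 38 named fold changes, 673 values were computed under alternatives, of which 577 kept direction and side of the threshold and 44 changed sign, in 12 named members. The largest of their values in the report was that of Tuba4a, at 0.81. With DESeq2 size factors Tubb5 became 0.0092 and Kif3a 0.0055. With no replicate block, Dctn1 became 0.0076, Tubb5 0.035, Tubg1 -0.25 and Kif3a 0.067. Within the experiment of 4 mice, Klc1 was -0.41, Dctn1 0.00095, Tuba4a -0.27, Tubg1 -2.63, Kif3a 0.18, Kif5a 0.11 and Kif5c -0.23. Within that of 6 mice, Dynll1 was 0.058, Tubb5 0.45, Kif3b 0.74, Kif21a -0.12 and Kif11 -0.17. Without 1 mouse, the ranges that crossed 0 were -0.21 to 0.21 for Tubb5, -0.16 to 0.71 for Tubg1, -0.16 to 0.090 for Kif3a, -0.50 to 0.29 for Kif3b, -0.057 to 0.16 for Kif5c, -0.13 to 0.24 for Kif21a and -0.074 to 0.24 for Kif11.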

Other observations

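Among the fixed lists outside the members, cofactors that fold and assemble the tubulin dimer had a median log2 fold change of -2.52 in NS mice, with 6 of 7 below 0, against 0.04 in FC mice with 3 of 7 below 0 and 0.67 in HC mice with 2 of 6 below 0. Tbcd, a cofactor that binds beta tubulin, was the exception in NS mice and was higher in dVenus+ cells of 4 of 4, at 43.0 ± 48.2 against 3.38 ± 6.40 CPM (mean ± SD, n = 4), with a log2 fold change of 4.33 (SE 1.94) and an adjusted p of 0.553 in edgeR. Enzymes that modify tubulin lay above 0 for 7 of 7 tested in NS, 5 of 9 in HC and 6 of 10 in FC mice, with medians of 1.23, 0.43 and 0.71. Of these, Ttll7 in FC mice was called. In FC mice 11 of 14 structural microtubule-associated proteins lay below 0, with Mapt, which encodes tau, at -1.17 (SE 0.37, adjusted p of 0.0663) and lower in 11 of 12 mice, and Map6 at -1.81 (SE 0.59, adjusted p of 0.0737). Map1a lay on the other side, at 0.83 (SE 0.33, adjusted p of 0.171) and higher in 10 of 12. Whether these lists differ between training groups was not tested.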
